A study of Mus musculus with 6 samples.

Results

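Lct, Dsp, C1ql2, C1ql3, Stxbp6, Plk5 and Fam163b are 7 genes of dentate granule cells, chosen by their symbols from the 19465 genes of the files, and each symbol matched 1 row in all 6 sections. Their levels were read in spots over the dentate granule layer and in all other spots of coronal brain sections. The sections are formalin-fixed, paraffin-embedded (FFPE) and come from untreated male C57BL/6J mice. There were 2 biological replicates per age: P21, adult (12 to 15 weeks in the labels) and aged (28 months). A spot is a small capture area that can hold several cells, and its UMIs count probe molecules read there. P21 and adult sections were mounted directly on Visium v1 slides, and aged sections were transferred with CytAssist onto Visium v2 slides. The paper describes the v2 probe design as enhanced, for more sensitive capture. Age and slide chemistry, probes included, thus cannot be told apart in aged vs. adult. No spot barcode of the aged sections occurs in the P21 or adult sections.

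Granule cells are the principal neurons of the dentate gyrus. They receive cortical input through the perforant path and send mossy fibers to CA3, and new ones are added after birth. C1ql2 and C1ql3 encode secreted C1q-like proteins that organize synapses through kainate receptors and adhesion GPCRs. Dsp encodes desmoplakin, which ties desmosomes to intermediate filaments. Stxbp6 encodes amisyn, which binds SNARE complexes, and Plk5 belongs to the polo-like kinase family. Lct encodes lactase, best known as an enzyme of the intestinal brush border.

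In GRCm38 with GENCODE vM21 the genes lie on 5 autosomes. C1ql2 spans chr1:120340582-120343174 on the plus strand and Lct chr1:128284756-128328318 on the minus strand. C1ql3 spans chr2:13003457-13011806 and Fam163b chr2:27110380-27142491, both on the minus strand. Plk5 spans chr10:80356459-80365489 on the plus strand. Stxbp6 spans chr12:44852484-45074709 on the minus strand, and Dsp spans chr13:38151294-38198577 on the plus strand.

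The 250 bases upstream of the start, from RefSeq on GRCm38.p6, were found for all 7 genes. They are shown for C1ql2 and Lct because these moved in opposite directions in the aged dentate, as described below. Capitals mark E-boxes, searched as CANNTG, which reads the same on both strands. C1ql2 is from chr1:120340332-120340581 on the plus strand and Lct from chr1:128328319-128328568 on the minus strand, each 5′ to 3′.
C1ql2: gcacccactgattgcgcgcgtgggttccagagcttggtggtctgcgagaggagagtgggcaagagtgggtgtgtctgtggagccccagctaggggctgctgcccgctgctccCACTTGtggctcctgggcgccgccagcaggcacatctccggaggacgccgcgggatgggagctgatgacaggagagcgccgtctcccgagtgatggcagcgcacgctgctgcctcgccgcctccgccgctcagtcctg
Lct: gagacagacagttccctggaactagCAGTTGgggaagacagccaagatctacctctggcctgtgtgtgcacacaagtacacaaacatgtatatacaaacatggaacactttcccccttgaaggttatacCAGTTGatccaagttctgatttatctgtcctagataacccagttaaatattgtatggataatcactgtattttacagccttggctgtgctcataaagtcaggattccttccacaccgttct
The C1ql2 window held 20 CpG dinucleotides and 1 E-box. The Lct window held 1 CpG and 2 E-boxes. Among the other 5 genes the CpG count ran from 12 in Stxbp6 to 25 in Fam163b, so Lct alone of the 7 was CpG-poor. Over all 32851 windows the median was 6 CpG, and 18.8% held as few as Lct. An E-box was present in 66.2% of all windows and in those of every member but Dsp.

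Dentate spots were found by clustering without the 7 genes and without the marker genes of granule cells. Of 20336 spots in all, 276 were dentate spots. The P21 sections held 39 and 38 of them, the adult ones 48 and 54, the aged ones 46 and 51. The 8 dentate markers were kept out of the clustering genes but named the cluster, and naming by marker panels also set the resolution. Those 8 markers were higher in these spots than elsewhere in 6 of 6 sections, which the naming itself favors. Prox1, the granule cell transcription factor, was at 605 CPM ± 75.8 (SD, n = 6) in them and at 71.8 ± 10.7 elsewhere. Tdo2, a tryptophan oxygenase, was at 33.5 CPM ± 6.43 and at 0.938 ± 0.234. CPM scale the UMIs of a gene to the total UMIs of the same spots (counts per 1e+06 UMIs). Fold changes and tests below come from edgeR on the summed UMIs, scaled by TMM factors. Dentate sums held from 1075158 to 3268444 UMIs per section. The 2 aged sections differed from each other, with dentate totals of 1266214 and 3268444 UMIs. The P21 totals also differed, at 2006359 and 1075158 UMIs. The summed level of 6 choroid plexus genes in dentate spots was 2268 CPM in aged replicate 1 and 33.3 in aged replicate 2 (3367 and 1455 at P21, 182 and 92.1 in the adult). Counts in the dentate differed between the aged sections by a mean chi-square of 4.34 per gene, against 1.48 between the P21 and 1.27 between the adult sections.

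Each of the 7 genes was higher in dentate spots than elsewhere in 6 of 6 sections, which is how such genes are known and is given without a test. Dsp and C1ql2 were the most confined, with a median ratio of dentate over elsewhere of 45.9 and 40.7. For Dsp it ran from 37.8 to 129 across sections, and for C1ql2 from 24.8 to 62.9. Lct followed with a median of 27.3 and a range of 13.6 to 75.9. The other 4 were shared more with the rest of the section, with medians of 7.26 for Fam163b, 6.41 for Plk5, 5.49 for Stxbp6 and 3.65 for C1ql3. Dentate spots held from 1.54% to 3.43% of a section's UMIs. In the median section they held 57.1% of all Dsp UMIs, 50.7% of C1ql2 and 47.7% of Lct, but 8.77% of C1ql3.

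**Figure D1:**
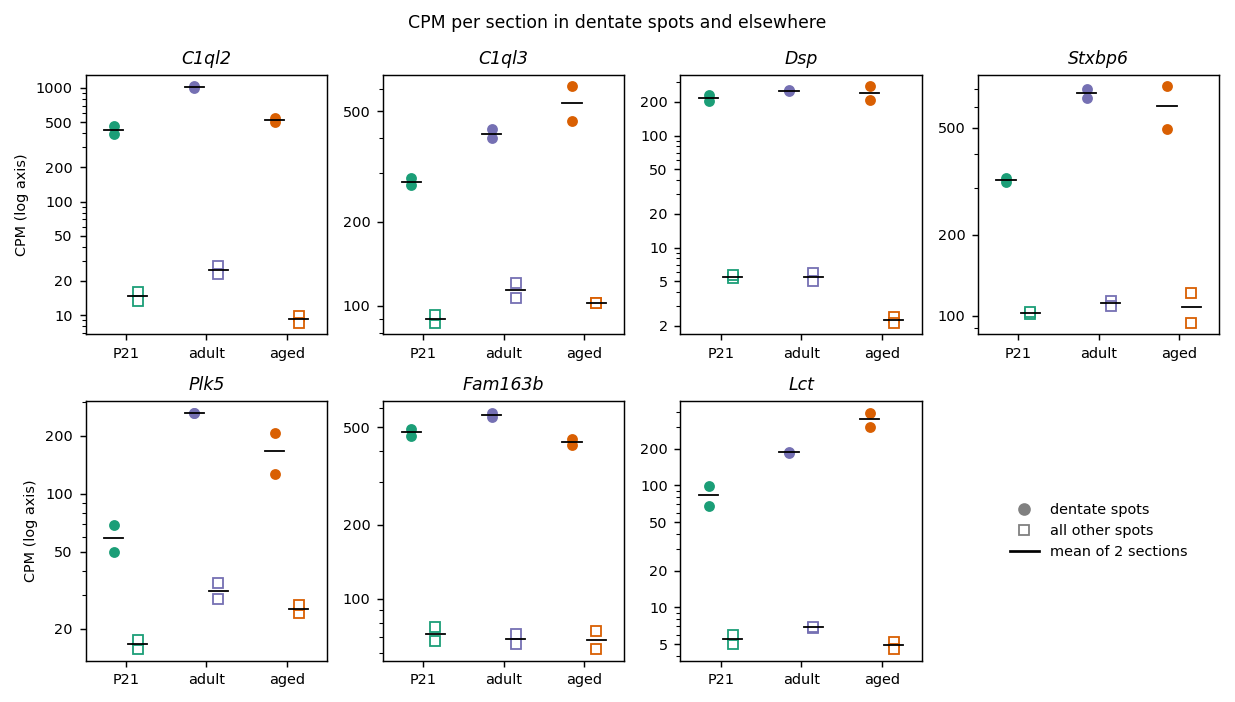
CPM of each gene in dentate spots (filled circles) and in all other spots (open squares) of each section, by age, on log axes that differ between panels; black lines are means of 2 sections. All dentate values lie above all values elsewhere, the adult sections are highest for C1ql2 and Plk5, and Lct is highest in the aged sections, at 396 and 302 CPM.

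Spots fell into 12 groups, the dentate among them, and the group that came next to it differed from gene to gene. CA1-2 and CA3 hold the pyramidal cell layers of the hippocampus. For C1ql2 it was the matrix, the hippocampal spots outside the cell layers, at 92.5 CPM ± 39.4 (SD, n = 6), then the hypothalamus (HY) at 24.8 ± 6.19. The cortex (CTX) was lowest, at 7.58 ± 4.94. C1ql3 was next in the CTX, at 164 CPM ± 26.6, and then in CA1-2 at 93.0 ± 24.9, while CA3 was lowest at 23.3 ± 8.67.

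Dsp was next in the ventricular system (VS), at 33.3 CPM ± 17.1, and in the matrix at 30.7 ± 3.09. Their order turned with age. The VS mean was below the matrix mean at P21 (24.9 and 29.5 CPM) and in the adult (22.0 and 29.8). In the aged sections it was above (52.9 and 32.9). All other places were at or below 7.27 CPM on average. Stxbp6 was next in the thalamus (TH), at 139 CPM ± 33.0, and in the matrix at 119 ± 19.6. The TH and matrix means were 138 and 98.8 CPM at P21 and 122 and 138 in the adult. In the aged sections they were 158 and 120. Stxbp6 was lowest in CA1-2 at 23.8 ± 11.5. Plk5 was at 36.5 CPM ± 19.1 in meningeal spots and at 35.2 ± 10.2 in the CTX. These overlapped over all ages but not within an age, and their order turned. At P21 the meningeal spots were below the CTX (19.6 and 18.8 against 22.4 and 28.7 CPM). They were also below it in the adult (34.4 and 26.03 against 47.9 and 46.7). In the aged sections they were above it (61.2 and 58.9 against 34.6 and 31.04). The change of Plk5 in meningeal spots was not tested. Plk5 was lowest in CA1-2 at 4.44 ± 1.86. Fam163b was at 120 CPM ± 14.1 in the matrix and at 105 ± 10.6 in the CTX, whose ranges overlapped, and lowest in the TH at 24.2 ± 12.3. The dentate was above every other place in 6 of 6 sections for each of these 6 genes.

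Lct was the exception. Its next place was CA1-2, at 89.3 CPM ± 30.8, and the dentate was highest in 4 of 6 sections. In the P21 sections CA1-2 stood at 76.1 and 145 CPM and the dentate at 68.3 and 99.5. In the adult sections CA1-2 stood at 55.7 and 99.4 and the dentate at 190 and 186. In the aged sections the values were 73.1 and 86.5 against 396 and 302. CA1-2 was thus above the dentate in both P21 sections and below it in the other 4. Outside the hippocampus Lct was at or below 6.23 CPM on average in each place.

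**Figure D2:**
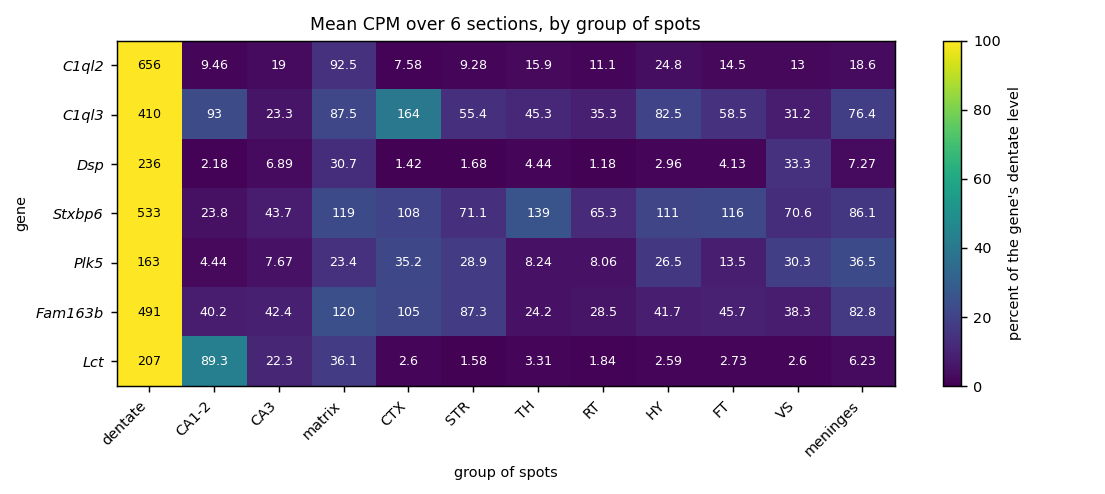
Mean CPM over 6 sections of each gene (rows) in each group of spots (columns), written in the cells; the color gives the level as a percent of the gene's own dentate level. Lct stands out by its CA1-2 value of 89.3 CPM and C1ql3 by its CTX value of 164 CPM.

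In P21 vs. adult, 5 of the 7 genes were lower in the dentate (edgeR quasi-likelihood test, adjusted p under 0.05 and fold over 1.5), where 10.8% of all 11227 genes tested were called, 6.89% higher and 3.93% lower. Plk5 and C1ql2 showed the largest falls, and Lct and Stxbp6 were also lower at P21. In a spot, fewer granule cells and less RNA per granule cell cannot be told apart.

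Plk5 was at 49.8 and 68.8 CPM in the P21 dentate and at 263 and 264 in the adult. No P21 value came near an adult one, and the log2 fold change was −2.24 (SE 0.20, adjusted p = 1.74e-06). C1ql2 was at 395 and 459 CPM at P21 and at 1033 and 1004 in the adult. Its log2 fold change was −1.31 (SE 0.11, adjusted p = 8.70e-07), with no overlap between the ages.

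Lct, the lactase gene, was at 68.3 and 99.5 CPM at P21 and at 190 and 186 in the adult, a log2 fold change of −1.26 (SE 0.17, adjusted p = 1.24e-04). Stxbp6 was at 326 and 313 CPM against 648 and 700, a log2 fold change of −1.12 (SE 0.14, adjusted p = 5.20e-05). In both genes the P21 sections lay below both adult sections.

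C1ql3, the relative of C1ql2, was at 287 and 272 CPM at P21 and at 399 and 430 in the adult. Its log2 fold change of −0.62 (SE 0.13, adjusted p = 0.00429) passed, but the call was lost under plain CPM, at −0.57, with sections clustered alone, at −0.57, and without P21 replicate 1 (adjusted p = 0.0730), P21 replicate 2 (0.0671) or adult replicate 2 (0.0820). Dsp, at 202 and 230 CPM against 248 and 253, gave −0.27 (SE 0.14, adjusted p = 0.202). Fam163b, at 460 and 493 CPM against 548 and 572, gave −0.28 (SE 0.11, adjusted p = 0.0843). The P21 values of Dsp and Fam163b were below the adult ones in both sections without passing the test.

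Other granule cell genes were read from a list of 19. Of these, 7 were lower at P21, none was higher, and the median log2 fold change was −0.49 against −0.01 over all genes tested. Glis3, a zinc finger transcription factor, had a log2 fold change of −1.73, Trpc6, a cation channel, of −1.47, Dock10, a guanine nucleotide exchange factor, of −1.07, and Penk, which encodes proenkephalin, of −0.997. Prox1, at 0.18 (SE 0.13, adjusted p = 0.412), was not called.

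Immature neuron and progenitor genes went the other way. Of 11 listed, 10 were tested and 9 were higher at P21, with a median of 2.01. Mki67, a proliferation marker, was higher by 4.22 (SE 0.77), Eomes, a factor of intermediate progenitors, by 4.07 (SE 0.77), Igfbpl1 by 3.23 (SE 0.21) and Dcx, which encodes doublecortin, by 2.198 (SE 0.18). The 11 genes summed to 1937 and 2101 CPM in the P21 dentate and to 604 and 639 in the adult.

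Glial and blood genes also differed between these dentate spots. All 8 oligodendrocyte markers were called higher at P21, and their sum was 9442 and 7509 CPM against 2372 and 1991 in the adult. All 4 erythrocyte markers were called higher, at a sum of 1590 and 1030 CPM against 150 and 57.4. Higher calls were also made for 4 of 5 endothelial, 3 of 8 astrocyte, 2 of 5 choroid plexus, 2 of 6 CA1 and 1 of 6 CA3 genes. The mossy cell and CA2 lists had 1 call each way, of 3 and 4 tested, and the 7 interneuron, 5 microglia and 6 immediate early genes had none. None of these markers was at 0 in the dentate spots of all sections, and their part in the members' changes was not tested.

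Binding partners and relatives of the members are set against the 10.8% of all genes called. Of 12 tested genes of C1q-like partners, receptors and cerebellins, 4 were higher at P21 and 1 was lower. Cbln4 was higher by 1.87, Cbln2 by 1.73, Cbln1 by 1.70 and C1ql1 by 1.28, and Grik2, a kainate receptor subunit, was lower, at −0.65. Of 5 desmosomal genes tested, Jup, encoding plakoglobin, was higher by 1.11 and Ppl, encoding periplakin, was lower, at −1.49. No syntaxin, Stxbp or other SNARE gene of 11 was called. Plk3 was higher among 2 polo-like kinases tested, as was Fam163a among 2 relatives of Lct and Fam163b.

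In aged vs. adult, 3 of the 7 genes were called in the dentate, where 6.78% of all genes were called, 3.65% higher and 3.13% lower. C1ql2 and Plk5 were lower and Lct was higher. Dsp, Stxbp6 and C1ql3 were not called, and Fam163b passed the adjusted p but not the fold.

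Lct was at 396 and 302 CPM in the aged dentate and at 190 and 186 in the adult. Both aged values lay above both adult values, and the log2 fold change was 0.87 (SE 0.15, adjusted p = 0.00188). Without aged replicate 1 it was 0.68, and without aged replicate 2 it was 1.06. From P21 through adult to aged, the sections of 1 age never overlapped those of another.

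C1ql2 was at 505 and 540 CPM in the aged dentate against 1033 and 1004 in the adult. Its log2 fold change was −0.97 (SE 0.11, adjusted p = 7.91e-05), with no overlap. The adult sections were thus above both other ages for C1ql2.

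Plk5 was at 126 and 208 CPM in the aged sections and at 263 and 264 in the adult. Its log2 fold change of −0.62 (SE 0.17, adjusted p = 0.0292) rested on particular sections. It was −0.35 without aged replicate 1, where the fold was no longer over 1.5, and −1.08 without aged replicate 2. The adjusted p rose to 0.145 and 0.168 without adult replicate 1 or 2, to 0.0517 without P21 replicate 2, and to 0.277 with DESeq2.

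Fam163b was at 422 and 449 CPM against 548 and 572, a log2 fold change of −0.37 (SE 0.10, adjusted p = 0.0312), which is under the fold of 1.5. C1ql3 was at 459 and 613 CPM against 399 and 430, a log2 fold change of 0.37 (SE 0.13, adjusted p = 0.0697). Both aged values of C1ql3 were above both adult ones. Stxbp6, at 497 and 714 CPM against 648 and 700, gave −0.16 (SE 0.14, adjusted p = 0.499), and its aged sections lay on both sides of the adult ones. Dsp, at 208 and 276 CPM against 248 and 253, gave −0.04 (SE 0.13, adjusted p = 0.871).

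Of the 19 granule cell genes none was called in aged vs. adult, with a median log2 fold change of 0.00 against 0.01 over all genes tested. Of 10 immature neuron genes tested, 3 were lower and none was higher. The log2 fold change was −3.73 (SE 0.48) for Igfbpl1, −1.68 (SE 0.26) for Dcx and −1.21 (SE 0.29) for Sox4. No call was made among 5 desmosomal, 11 SNARE, 2 polo-like kinase or 2 relatives of Lct and Fam163b.

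Among markers of other cells in the aged dentate, 3 of 5 microglia, 2 of 8 astrocyte, 2 of 7 interneuron, 2 of 6 CA3 and 3 of 6 immediate early genes were called higher. Lower calls were made for 4 of 8 oligodendrocyte and 3 of 6 CA1 genes, and none for CA2, mossy cell, endothelial, erythrocyte or choroid plexus genes. The summed microglia markers were at 414 and 300 CPM against 198 and 211 in the adult. Their part in the changes of Lct, C1ql2 and Plk5 was not tested.

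**Figure D3:**
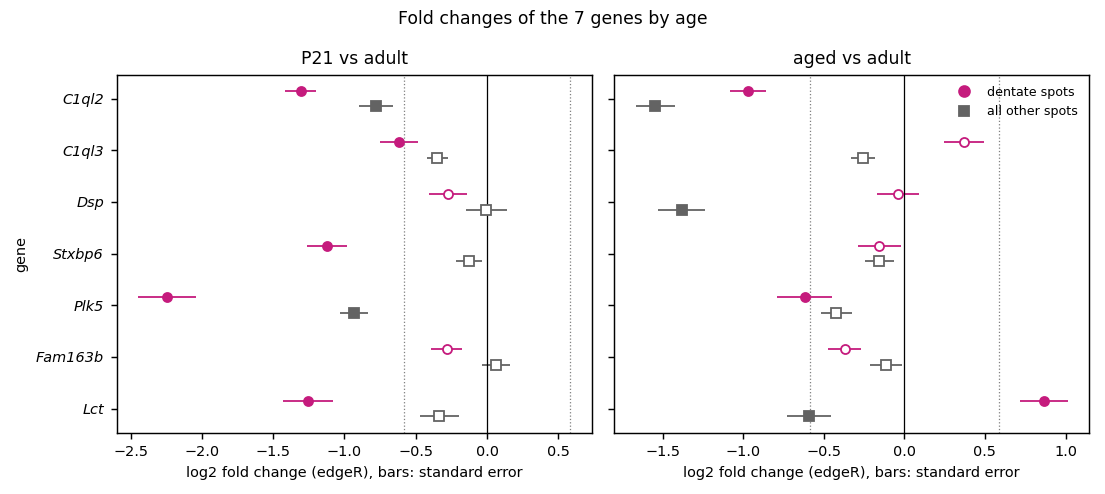
Log2 fold changes with standard errors of each gene for both comparisons with the adult, in dentate spots (circles) and all other spots (squares); filled symbols passed the test and dotted lines mark a fold of 1.5. Lct is to the left of 0 in P21 vs. adult and, in the dentate only, to the right of 0 in aged vs. adult, at 0.87.

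Outside the dentate, 2 of the 7 genes were lower in P21 vs. adult, where 7.96% of 18011 genes were called and 2.42% called lower. These were Plk5, at −0.93 (SE 0.10), and C1ql2, at −0.78 (SE 0.12). Plk5 was at 15.7 and 17.6 CPM elsewhere at P21 and at 34.7 and 28.4 in the adult.

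The test of the difference itself, with each section as a block, called 3 members in P21 vs. adult, against 4.79% of 16050 genes, 1.60% with a lower value in the dentate. The fall at P21 was larger in the dentate than elsewhere for Plk5, with a log2 difference of −1.35 (SE 0.19, adjusted p = 4.41e-05), for Stxbp6, at −1.02 (SE 0.11, adjusted p = 1.48e-06) and for Lct, at −0.95 (SE 0.16, adjusted p = 3.63e-04). C1ql2 differed by −0.58 (SE 0.14, adjusted p = 0.00816), just under the fold of 1.5. When dentate spots were set against the other hippocampal spots alone, these 3 were called again and Fam163b was added, at −0.72 (SE 0.13, adjusted p = 4.11e-04). Of 12642 genes tested there, 488 were called, 277 with a higher and 211 with a lower value in the dentate.

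In aged vs. adult, 3 of 7 members were lower elsewhere, where 27.9% of genes were called, 23.3% higher and 4.68% lower. The log2 fold change was −1.55 (SE 0.12) for C1ql2, −1.38 (SE 0.15) for Dsp and −0.59 (SE 0.14) for Lct. The make-up of these spots differed between the ages. The matrix, with a mean of 131 CPM of C1ql2 in the adult, gave 2338668 and 2510393 of 50910757 and 49476681 UMIs there. In the aged sections it gave 1614482 and 1666526 of 80730953 and 103515216. The part of this make-up in the changes elsewhere, and in the differences below, was not tested. Dsp was at 5.95 and 5.05 CPM elsewhere in the adult and at 2.40 and 2.13 in the aged sections. Its mean was not lower in the aged VS (52.9 against 22.0 CPM) or matrix (32.9 against 29.8). It was lower in all other places outside the dentate, as in the CTX (0.261 against 1.80) and TH (0.991 against 6.97). The call of Lct elsewhere was lost under plain CPM, at −0.49, and without aged replicate 2, at −0.47, or adult replicate 2, at −0.58.

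The difference between dentate and elsewhere in aged vs. adult passed for Lct, at 1.38 (SE 0.14, adjusted p = 3.86e-06), and for Dsp, at 1.27 (SE 0.17, adjusted p = 2.35e-04), against 0.548% of 16050 genes, 0.268% with a higher value in the dentate. C1ql3 differed by 0.54 (SE 0.12, adjusted p = 0.0352), under the fold of 1.5. Against the other hippocampal spots alone, both calls were lost. Lct was then at 0.19 (SE 0.16, adjusted p = 0.613) and Dsp at 0.55 (SE 0.19, adjusted p = 0.126). C1ql3, at 1.37 (SE 0.13, adjusted p = 5.70e-08), and Stxbp6, at 0.68 (SE 0.13, adjusted p = 0.00191), passed instead. In that comparison 257 of 12642 genes were called, 150 with a higher and 107 with a lower value in the dentate. The other hippocampal spots differed in make-up between these ages. CA3 gave 1325153 and 1762319 UMIs in the adult and 4112979 and 3818657 in the aged sections. The matrix gave 2338668 and 2510393 in the adult and 1614482 and 1666526 in the aged sections. C1ql3 and Stxbp6 had means of 23.3 and 43.7 CPM in CA3 and of 87.5 and 119 in the matrix. The part of this shift in the differences was not tested.

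Lct changed unevenly over the subfields. In the matrix it was at 26.1 and 21.1 CPM in the adult sections and at 68.8 and 62.4 in the aged ones, a log2 fold change of 1.4996 (SE 0.18, adjusted p = 1.24e-06, against 15.8% of genes called there). The matrix held 236 and 284 spots in the adult and 128 and 110 in the aged sections. Over all spots 1 step from the dentate, its nearest neighbors, Lct was at 35.9 and 55.3 CPM in the adult and 184 and 125 in the aged sections. At 3 steps it was at 19.9 and 22.0 CPM against 20.8 and 17.9, which overlapped. The part of spot numbers and of nearness to the dentate in the Lct change of the matrix was not tested. In CA3 Lct was higher by 0.94 (SE 0.25, adjusted p = 0.00915, against 8.51%). In CA1-2 the change was 0.06 (SE 0.24, adjusted p = 0.908). In 4 places away from the hippocampus Lct was lower in the aged sections, at −1.30 (SE 0.28) in the CTX, −1.87 (SE 0.36) in the TH, −2.02 (SE 0.40) in the HY and −1.32 (SE 0.41) in the fiber tracts (FT). The genes called were 13.0%, 14.9%, 11.4% and 31.2% of those tested in these 4 places. In the VS Lct was not tested and stood higher, at 4.91 and 3.62 CPM (7 and 5 UMIs) in the aged and 1.75 and 2.202 (2 and 1 UMIs) in the adult sections. By mean level it was lower in the aged striatum (0.432 against 2.07 CPM) and reticular thalamus (0.352 against 4.29). In meningeal spots it was at 5.83 against 8.30 CPM, within the spread.

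In P21 vs. adult the change of Lct in CA1-2 was 0.42 (SE 0.25, adjusted p = 0.434), where 2.37% of genes were called. A comparison of dentate with CA1-2 spots, added after these levels were seen, gave a difference of −1.67 (SE 0.26, adjusted p = 2.83e-04) for Lct in P21 vs. adult and of 0.78 (SE 0.24, adjusted p = 0.223) in aged vs. adult.

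C1ql2 was lower at P21 in the matrix, at −1.23 (SE 0.16), and in the TH, at −1.46 (SE 0.15). Plk5 was lower at P21 in the CTX, at −0.91 (SE 0.12), in the striatum (STR), at −0.81 (SE 0.19), and in the matrix, at −1.19 (SE 0.23). Its mean was also lower at P21 in the TH (6.86 against 12.9 CPM), HY (17.6 against 33.2) and FT (10.1 against 23.0), but level in CA3 (9.21 against 9.16). Among all members, 3 of 7 were called lower at P21 in the matrix (231 of 12066 genes lower) and 3 of 7 in the TH (392 of 13737). The FT had 2 of 7 (526 of 13743 genes lower) and the HY 1 of 7 (220 of 13868). At P21 the genes called in either direction were 5.33% in the matrix, 7.73% in the TH, 6.35% in the CTX, 3.62% in the STR and 3.29% in CA3. Fam163b was higher at P21 in CA3, by 1.34 (SE 0.20, adjusted p = 3.14e-05), where it was at 78.8 and 57.6 CPM against 27.9 and 27.8, while its dentate value did not pass.

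In the aged TH, 6 of 7 members were lower, against 7.69% of genes called lower, and in the FT 5 of 7, against 12.7%. In the TH the log2 fold changes ran from −1.34 for Plk5 to −2.78 for Dsp, and Stxbp6, at 0.39 (SE 0.20), was not called. Dsp and Lct were low there, at means of 0.991 and 1.54 CPM in the aged sections. In CA1-2, 3 of 5 tested members were lower in the aged sections, against 7.36% of genes called and 3.20% called lower. The values were −1.59 (SE 0.34) for Stxbp6, −0.80 (SE 0.26) for Fam163b and −0.61 (SE 0.19) for C1ql3. Lower calls in the aged sections were also made for 3 of 7 members in the CTX, where 663 of 14508 genes were called lower. The HY had 3 of 7 (638 of 13868 genes) and the STR 2 of 5 (746 of 12465). The matrix and CA3 had 1 call each way, against 15.8% and 8.51% of genes called.

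Levels by distance from the dentate spots give the setting of these values. At 1 step, the nearest neighbors, Dsp was at 73.9 and 79.2 CPM in the P21, 83.1 and 67.8 in the adult and 62.2 and 72.8 in the aged sections, which overlapped. At 4 to 6 steps it was at 11.1 and 11.04 CPM at P21, 12.2 and 14.7 in the adult and 1.70 and 1.78 in the aged sections. The aged sections were the lowest from 2 steps on, where they stood at 22.7 and 17.2 CPM against 25.9 to 44.2 in the other 4, and beyond 10 steps Dsp was at 1.57 and 1.22 CPM in them and between 3.08 and 3.44 in the other 4. C1ql2 at 4 to 6 steps was at 24.2 and 16.4 CPM at P21 and at 55.7 and 62.2 in the adult. In the aged sections it was at 9.501 and 6.08 CPM.

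C1ql3 at 4 to 6 steps was at 25.1 and 26.8 CPM in the aged sections and between 52.8 and 67.0 in the other 4, but beyond 10 steps, which takes in the CTX, at 112 and 115 against 115 and 129 in the adult. Lct at 1 step was at 37.5 and 31.7 CPM at P21, 35.9 and 55.3 in the adult and 184 and 125 in the aged sections. At 2 steps it was at 23.5 and 23.2 CPM at P21, 32.2 and 40.2 in the adult and 49.6 and 37.6 in the aged sections. At 3 steps it was at 17.2 and 18.5 CPM at P21, 19.9 and 22.0 in the adult and 20.8 and 17.9 in the aged sections. Lct at 4 to 6 steps was at 23.6 and 39.3 CPM at P21, 24.3 and 26.2 in the adult and 13.2 and 26.1 in the aged sections. The slide chemistry changes with age here, so its share in these values cannot be told apart.

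**Figure D4:**
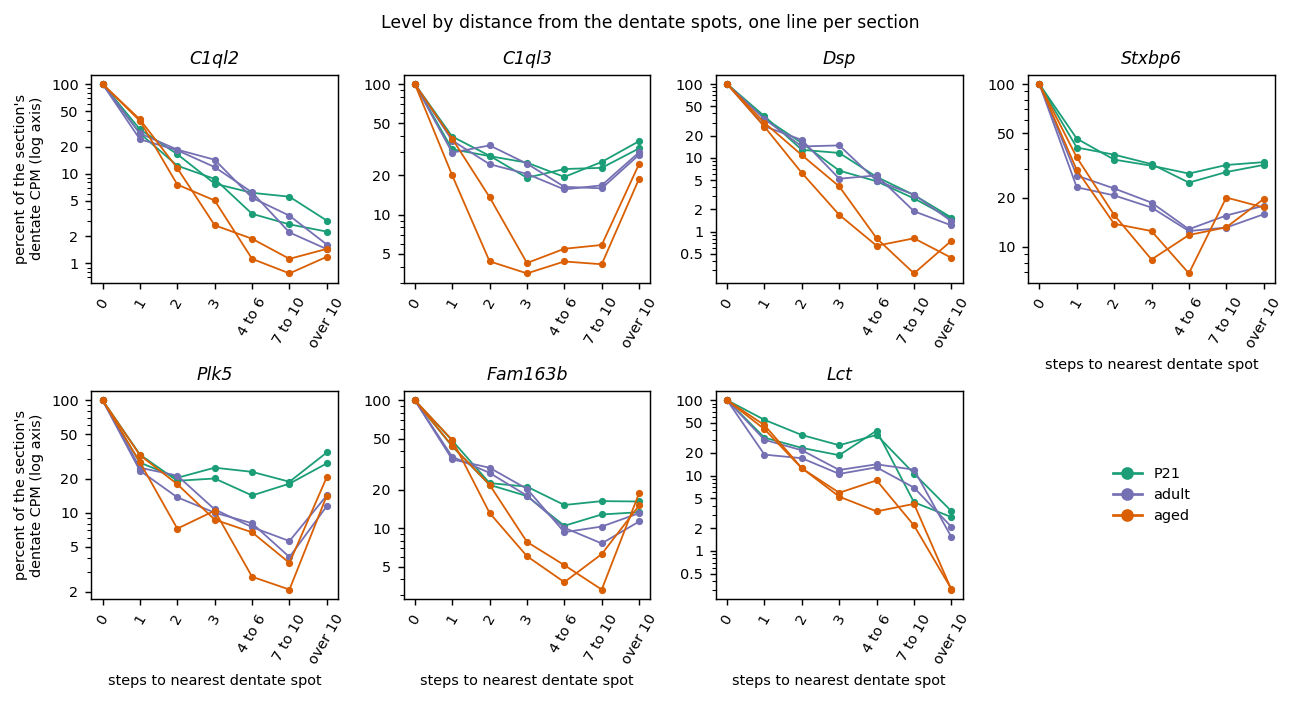
CPM at increasing distance from the dentate spots, in steps between neighboring spots, as a percent of the same section's dentate CPM on log axes; each line is 1 section. The aged lines lie lowest at 4 to 6 steps for all 7 genes, while at 1 step the ages lie together for Dsp.

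The low counts of Lct set how many spots show it. A dentate spot held a median of 3 and 2 Lct UMIs in the P21 sections, 6 in each adult section and 11 and 15 in the aged sections. At least 1 UMI was found in 69 of 77 dentate spots at P21 (89.6%), in 98 of 102 in the adult (96.1%) and in 97 of 97 in the aged (100%). With each spot thinned to 5000 UMIs, which left out no dentate spot, the shares were 35.1% at P21 (95% exact interval 24.5% to 46.8%), 61.8% in the adult (51.6% to 71.2%) and 76.3% in the aged (66.6% to 84.3%). These intervals cover counting error only.

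In the TH, where Lct was at 3.31 CPM ± 2.04 (SD, n = 6), the thinned shares were 1.10%, 2.64% and 0.464%, at median depths of 20193, 17833 and 21670 UMIs per spot against 37588, 34298 and 34140 in the dentate. Dsp, the other gene that few spots detect, was present after thinning in 68.8%, 63.7% and 71.1% of dentate spots at P21, adult and aged. Elsewhere its thinned shares were 2.30%, 2.85% and 1.11%.

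Dentate spots varied among themselves. Plk5 had no UMI in 5 and 11 dentate spots of the P21 sections, in 3 and 4 of the adult and in 6 and 0 of the aged sections. Stxbp6 reached 1664 and 2620 CPM in its highest aged spots, against medians of 448 and 665. Lct ran from 111 to 1171 CPM among the spots of aged replicate 1 and from 70.3 to 620 in aged replicate 2, and none of them was at 0.

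**Figure D5:**
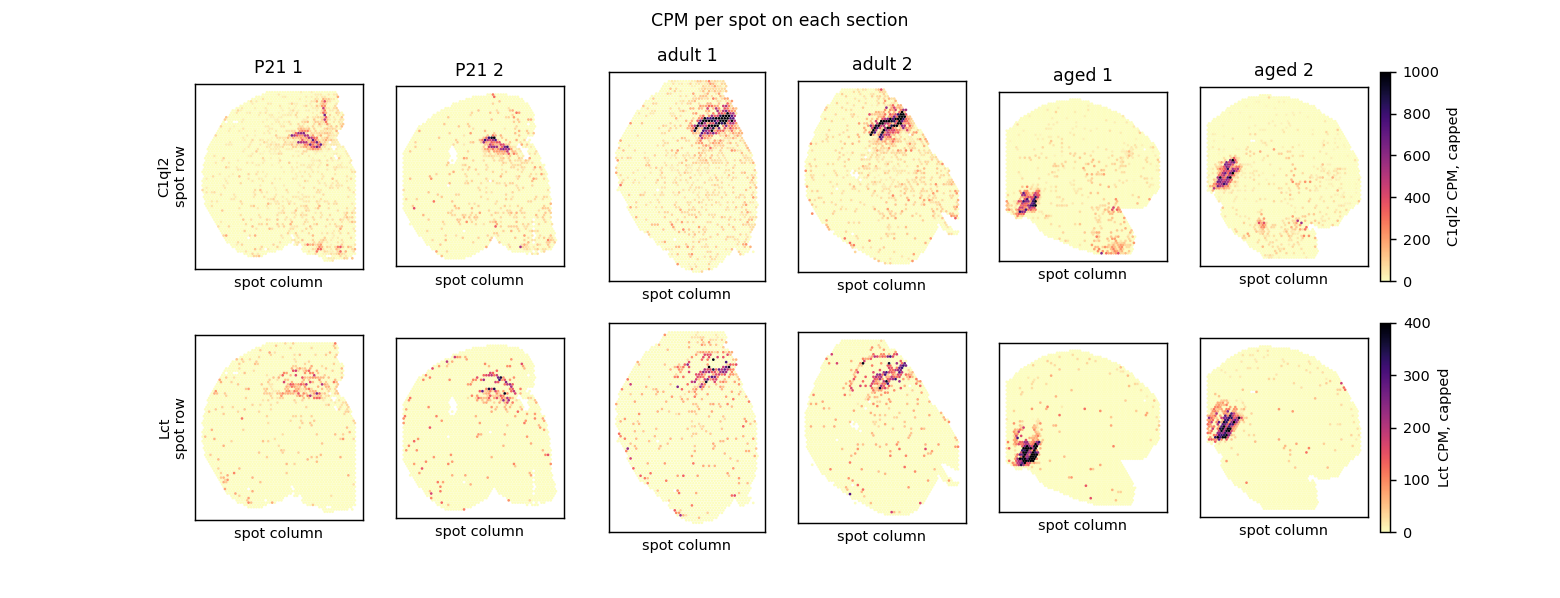
Each dot is a spot in its place on the section, colored by its CPM of C1ql2 (top row) or Lct (bottom row), capped at the top of each color bar, for the 6 sections. C1ql2 marks the dentate band in all sections, and Lct marks a wider hippocampal outline at P21 and the dentate most strongly in the aged sections.

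The deposited Moran's I, a score of how far neighboring spots resemble each other, ranked the members high among the genes of each section. For Lct it was 0.25 and 0.22 at P21, 0.27 and 0.32 in the adult and 0.68 and 0.69 in the aged sections. Its rank went from 776 and 561 at P21 to 79 and 78 in the aged sections, of 17185 to 19363 genes ranked. C1ql2 ranked 46 and 61 in the adult sections. Plk5 was the least clustered of the 7, with a median of 0.20. All members but C1ql2 had their 2 highest scores in the aged sections, where the median over all genes was also highest, at 0.0226 and 0.0295 against 0.0136 and 0.0127 in the adult. Ranks moved less evenly from adult to aged. C1ql3 went from 447 and 300 to 146 and 167, while Dsp went from 154 and 157 to 204 and 185, Plk5 from 843 and 719 to 1452 and 1345 and C1ql2 to 409 and 369.

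Profiles over 12 places in 6 sections, 72 sums that share sections and depth, describe likeness. Among the members, C1ql2 and Dsp were most alike (Pearson r = 0.83) and Stxbp6 and Lct least (r = 0.13). Of all other genes, Rfx3 (r = 0.88), Htra4 (0.87), Trpc6 (0.86), Olfr539 (0.84) and Mylk3 (0.84) came nearest to the members' mean profile. Rfx3 and Trpc6 are on the list of granule cell genes, and Trpc6 is among the markers that named the dentate cluster. Rfx3, a transcription factor, was at 306 CPM ± 48.7 (SD, n = 6) in the dentate and at 52.2 ± 8.99 elsewhere. Htra4, a serine protease, was at 22.0 ± 9.94 and at 1.06 ± 0.276. Nearest to Lct alone were Dhx33 (0.89), Nr3c2 (0.88), which encodes the mineralocorticoid receptor, and Epha7 (0.88), an ephrin receptor. Nr3c2 was at 364 CPM ± 53.6 in the dentate and at 74.5 ± 16.4 elsewhere.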

How the data were processed

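Each deposited count is a number of UMIs of 1 gene in 1 spot, which the authors made with Space Ranger on mm10 and 10x Genomics mouse probes, without normalization. The paper describes the probe design of the v2 protocol, used for the aged sections, as enhanced. Per the file headers the version was 2.0.0 for P21 and adult and 3.1.1 for aged sections, and the submitters' processing notes list 2.1.0. The deposited Moran's I score was read as given. Spots with under 250 genes or 500 UMIs were removed. Sections held median depths of 12074.5 to 25535 UMIs per spot.

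Spots were clustered (Leiden, leidenalg 0.10.2, resolution 0.3, hippocampal spots again at 0.1) on 3000 variable genes and 10 principal components, with 26 genes, the members and granule markers, kept out, and named from marker panels. UMIs were summed per section and place. edgeR 4.0.16 (TMM, glmQLFit, glmQLFTest, filterByExpr) fitted all 6 sums with age, and dentate against elsewhere with section as a block. Adjusted p are Benjamini-Hochberg values over all genes tested, and a call needed adjusted p under 0.05 and a fold over 1.5. The standard error is the log2 fold change divided by the root of F. The study's filter of 10% of all spots drops Lct and Dsp and was run as an alternative. p-values measure the spread between the 2 sections of an age, estimated in 1 fit over all 6 sections. The spread of the aged pair thus enters P21 vs. adult too. For the difference it is the spread of dentate against elsewhere between sections of an age. The tests were tried on simulated data. Same-numbered sections did not deviate together (correlations of 0.00 to 0.09 over 11227 genes), so numbers do not pair them.

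The members, lists and tests were chosen with earlier results of these data known. Named genes are the members, the called genes of each list with at most 4 named, and the genes of highest correlation with the members' profile (5) or with Lct (3). Prox1 and Tdo2, which are among the naming markers, and the named summed markers are given as description. DESeq2 1.42.0, other scaling, filters and dentate definitions, a replicate block and leaving out each section were tried. Protein sequences were not used here, and 1 gene of the lists is not reported here.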

Additional observations from a re-analysis of the deposited data

Results flagged for a closer look

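Effects of age that differed between dentate spots and all other spots, by the test of the difference itself (adjusted p under 0.05), were found for 6 genes. In P21 vs. adult the log2 difference was −1.35 for Plk5, −1.02 for Stxbp6, −0.95 for Lct and −0.58 for C1ql2, each a larger fall in the dentate. In aged vs. adult it was 1.38 for Lct, 1.27 for Dsp and 0.54 for C1ql3. Lct was higher in the aged dentate, at 0.87, and lower elsewhere, at −0.59, while Dsp was at −0.04 in the dentate and −1.38 elsewhere. In the VS and matrix, its highest places elsewhere, mean Dsp was not lower in the aged (52.9 and 32.9 CPM) than in the adult sections (22.0 and 29.8). With other hippocampal spots as the comparison, the differences of Lct and Dsp in aged vs. adult were 0.19 and 0.55 and did not pass. Slide chemistry and age cannot be told apart in that comparison.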

How the results depend on the processing

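The levels in dentate spots over elsewhere kept within 1 SD under all 4 other definitions or depths. Members called in the dentate numbered 4 to 5 in P21 vs. adult and 2 to 3 in aged vs. adult over all alternatives, without Lct and Dsp under the study's filter. Leaving out a section gave 4 to 5 and 2 to 3 in the dentate, 2 and 2 to 3 elsewhere, and 3 to 4 and 2 to 4 for the difference, the 4 without aged replicate 1, where C1ql2 and C1ql3 were added. The replicate block changed no call of a member, with 1203 and 786 genes called in the dentate and 1346 and 4868 elsewhere. Genes called in the dentate were 1215 in P21 vs. adult (540 with DESeq2, 370 to 1572 leaving out a section, fewest without P21 replicate 1) and 761 in aged vs. adult (320 with DESeq2, 188 to 1220, fewest without adult replicate 2). Elsewhere they were 1433 (947 to 1427, fewest without P21 replicate 2) and 5034 (4436 to 5891). For the difference they were 768 in P21 vs. adult (488 against hippocampal spots, 241 against CA1-2, 488 to 1149) and 88 in aged vs. adult (257, 41, 64 to 278). The CA1-2 comparison was added after the data were seen, and there Plk5 in P21 vs. adult missed the threshold, at −2.16. Plain CPM moved the median of all genes elsewhere in aged vs. adult from 0.04 to 0.15, and the split of the difference from 512 higher and 256 lower to 682 and 185 in P21 vs. adult and from 43 and 45 to 41 and 65 in aged vs. adult. Directions of members turned only where the reported value was not a call. In the difference, aged vs. adult, Stxbp6 went from −0.10 to 0.68 against hippocampal spots, 1.496 against CA1-2 and −0.22 to 0.0071 leaving out a section (above 0 without aged replicate 1). There Plk5 went to 0.53 and 0.20 and Fam163b to 0.17 and 0.45 under the first 2. Leaving out a section in aged vs. adult, Dsp ran from −0.29 to 0.13 and Stxbp6 from −0.46 to 0.072 in the dentate (above 0 without aged replicate 1), and Fam163b from −0.26 to 0.026 elsewhere (above 0 without aged replicate 2). Elsewhere in P21 vs. adult, Dsp ran from −0.11 to 0.10 (turned without P21 replicate 1 or adult replicate 1) and Fam163b from −0.029 to 0.15 (turned without P21 replicate 1). The cause was not tested. Lct had 137 and 107 UMIs in the P21 dentate sums. With each section thinned to the lowest dentate total, 1075158 UMIs, the same 5 members were called in P21 vs. adult and the same 3 in aged vs. adult.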
